A study of Mus musculus with 20 samples.

Results

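Hearts of old mice were divided by their content of atrial transcripts, and the resulting arrays were compared with each other across all measured genes. The groups were chosen by 1 measured value, the log2 signal of Myl7, the atrial regulatory myosin light chain. Of the 10 old arrays, 7 had a value above 10 (old replicates 3, 4, 5, 6, 8, 9 and 10, called Myl7-high) and 3 had 10 or less (old replicates 1, 2 and 7, called Myl7-low). The series holds 20 arrays in all, and the 10 young arrays served as a reference level. Each array measured RNA of the cardiac ventricle of 1 male C57BL/6J mouse, an inbred laboratory strain that all groups share, aged 25 to 28 months in the old group and 4 to 6 months in the young group. No treatment or engineered allele is named for either group. The samples are labelled ventricle, and Myl2, the ventricular regulatory light chain, was near the top of the scale in every old array (14.92 to 15.19), where differences are compressed. The old arrays differed in the amount of atrial transcripts beside the ventricular ones, and only replicate 1 was at the young level for Myl7. The study was designed around mitochondrial gene expression in ageing, and the labels name no subgroup of old hearts, so the high and low arrays are a division by a measured value and not a condition of the study.

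The atria and ventricles of the heart contract with partly different sarcomere proteins. Atrial muscle carries the light chains encoded by Myl7 and Myl4, keeps sarcolipin (Sln) beside the calcium pump where the ventricle mainly uses phospholamban (Pln), and stores the natriuretic peptide encoded by Nppa. The 3 transcripts Myl7, Sln and Myl4 are silent or very low in adult mouse ventricle, so they mark atrial muscle in a mixed RNA. In such whole-tissue RNA, fewer cells of a type and less RNA per cell cannot be told apart.

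The start regions of 4 genes on which the results turn are shown to give the sequence context of 2 sarcomere genes (Myl7, Mybphl), a secreted atrial hormone (Nppa) and a gene that varied widely among the Myl7-high arrays (Bmp10). Each sequence is the 250 bases before the annotated start, from RefSeq on GRCm38.p6, 5′ to 3′ on the gene's strand. Capitals mark GATAA, the core bound by GATA factors, and AGGTGT, the core bound by T-box factors such as Tbx5, on either strand. The regions are chr11:5898783-5899032 (minus strand) for Myl7, chr4:148000472-148000721 (plus strand) for Nppa, chr3:108364661-108364910 (plus strand) for Mybphl and chr6:87428744-87428993 (plus strand) for Bmp10.
Myl7: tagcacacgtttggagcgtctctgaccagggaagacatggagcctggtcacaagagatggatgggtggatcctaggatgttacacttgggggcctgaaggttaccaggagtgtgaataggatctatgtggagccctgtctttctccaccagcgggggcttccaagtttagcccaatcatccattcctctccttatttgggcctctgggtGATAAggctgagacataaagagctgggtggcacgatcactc
Nppa: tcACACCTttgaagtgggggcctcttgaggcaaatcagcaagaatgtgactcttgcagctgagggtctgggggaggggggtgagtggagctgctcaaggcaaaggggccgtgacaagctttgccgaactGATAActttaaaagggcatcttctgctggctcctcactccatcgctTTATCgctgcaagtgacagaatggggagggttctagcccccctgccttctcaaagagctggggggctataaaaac
Mybphl: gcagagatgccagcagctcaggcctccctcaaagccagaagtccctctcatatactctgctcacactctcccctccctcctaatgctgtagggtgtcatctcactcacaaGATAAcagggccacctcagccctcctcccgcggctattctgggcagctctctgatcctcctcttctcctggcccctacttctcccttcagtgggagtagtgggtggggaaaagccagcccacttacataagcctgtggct
Bmp10: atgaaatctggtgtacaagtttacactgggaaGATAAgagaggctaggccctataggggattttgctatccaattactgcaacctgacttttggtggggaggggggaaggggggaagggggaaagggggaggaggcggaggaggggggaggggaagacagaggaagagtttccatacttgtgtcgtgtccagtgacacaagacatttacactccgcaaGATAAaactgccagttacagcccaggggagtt
GATAA occurred 1 time in the Myl7 window, beginning 41 bases before the start, 2 times in the Nppa and Bmp10 windows and 1 time in the Mybphl window. AGGTGT occurred 1 time, in the Nppa window. Of 32851 windows of the same length over all genes, 22.6% held GATAA and 11.8% held AGGTGT. A match of these letters is a description of the sequence and shows no binding.

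Myl7 separated the old arrays widely. Its log2 signal was 2.36 in old replicate 1, 6.58 in replicate 7 and 8.27 in replicate 2, and 12.13, 14.27, 13.27, 14.34, 14.03, 14.26 and 14.55 in replicates 3, 4, 5, 6, 8, 9 and 10. The young arrays lay between 2.38 and 2.44, so replicate 1 was at the young level while replicates 2 and 7 were above it. The array just inside the threshold was replicate 3 (12.13) and the array just outside was replicate 2 (8.27). As a share of the median Myl7-high array on the linear scale, Myl7 was 0.0261% in replicate 1, 0.487% in replicate 7, 1.57% in replicate 2 and 22.8% in replicate 3. These values chose the groups and were not tested.

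The other atrial sarcomere and calcium genes separated the same arrays, with replicate 3 the lowest of the high ones. Sln and Myl4 also ranked the low arrays as Myl7 did, while Mybphl was near the floor in all of them. Among the other high arrays the order differed from gene to gene. Sln, the sarcolipin gene, was 2.11, 6.97 and 5.01 in old replicates 1, 2 and 7. In the Myl7-high arrays it was 9.91 in replicate 3 and 12.53 to 13.87 in the other 6, with young arrays at 2.00 to 2.32. Myl4, the atrial essential light chain, was 4.04, 9.01 and 5.94 in replicates 1, 2 and 7. It was 11.94 in replicate 3 and 13.82 to 14.58 in the other Myl7-high arrays, and 4.03 to 5.16 in young. Replicate 2 thus held 1.42% of the median high signal for Sln and 2.78% for Myl4, and replicate 3 held 10.9% and 21.2%. Mybphl, which encodes a myosin-binding protein of atrial sarcomeres, was 2.75, 3.27 and 2.65 in the low arrays, 5.32 in replicate 3 and 9.12 to 11.14 in the other high arrays. No low array and no young array (2.64 to 3.18) exceeded 4 for this gene.

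**Figure D1:**
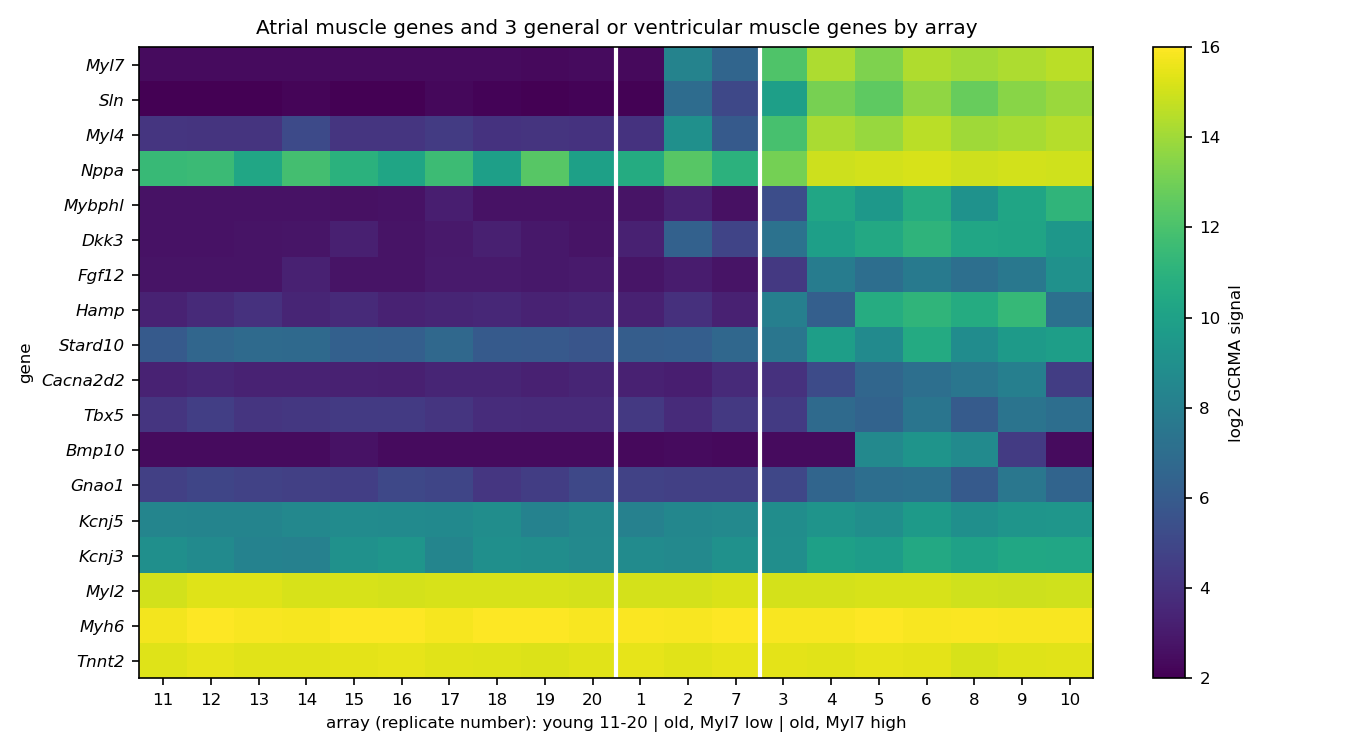
Log2 signal of 15 atrial muscle genes and of Myl2, Myh6 and Tnnt2 (rows) in each array (columns: young 11 to 20, then old replicates with low Myl7, then old replicates with high Myl7), with colour from log2 2 to 16. Old replicate 3 has the lowest values of the high columns for most atrial genes, and the bottom rows of ventricular and general muscle genes look alike in all arrays.

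Nppa, which encodes atrial natriuretic peptide and is also made by stressed ventricle, was already bright in young hearts (11.01 ± 0.87, SD, n = 10). The low arrays were at 10.63, 12.38 and 11.01, the high arrays at 13.09 in replicate 3 and 14.91 to 15.17 in the others. Dkk3, a secreted glycoprotein of the Dickkopf family, was 3.28, 6.33 and 4.89 in the low arrays and 7.30 to 11.13 in the high ones, with a young range of 2.70 to 3.25. Fgf12, an intracellular growth factor homologue that modulates sodium channels, was 2.75 to 3.07 in the low arrays, 4.34 in replicate 3 and 7.06 to 9.07 in the other high arrays. Tbx5, a T-box transcription factor enriched in atria, was 3.73 to 4.35 in the low arrays, 4.37 in replicate 3 and 6.02 to 7.44 in the others, so replicate 3 was hardly apart from the low arrays. Kcnj3 and Kcnj5, subunits of the acetylcholine-activated potassium channel, differed less. Kcnj3 was 8.56 to 9.07 in low and 8.93 to 10.43 in high, with overlap, and Kcnj5 was 8.14 to 8.57 in low and 8.87 to 9.62 in high, without overlap.

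Of the 30 genes in the atrial muscle list, 26 were on the array and 23 besides Myl7 passed the filter (log2 above 4 in at least 3 of the 10 old arrays). Of the 23, 6 were above 4 in no low array, Mybphl among them, and passed only through the high arrays. The counts over the list therefore describe the division and support nothing. The mean difference, high minus low, was above 0 for 22 of the 23 and its median was 1.84. For 13 of them every high array lay above every low array, and over all 9660 genes 2.98% did so. The member on the other side of 0 was Kcna5, a delayed-rectifier potassium channel, at −0.58. Gja5 and Cacna1d did not pass the filter and stayed at 4.29 or less in every old array. With Myl7 counted, 14 members did not overlap, and the lowest high array was replicate 3 for 12 of them and replicate 4 for the other 2. Against the young arrays the list median was 1.80 in the high arrays and 0.01 in the low arrays, and both differences share the young arrays. Among the 14, replicate 2 exceeded every young array for 6, replicate 7 for 5 and replicate 1 for 1.

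Across all genes, limma called few genes between the 7 high and 3 low arrays. Of 9660 genes tested with Benjamini-Hochberg adjustment, 22 (0.228%) were called at an adjusted p under 0.05, 21 of them (0.217%) higher and 1 (0.0104%) lower in the high arrays. At an unadjusted p under 0.05 the counts were 702 higher (7.27%) and 644 lower (6.67%). The arrays were divided by a value measured on them, so such a call says that a gene went with Myl7 among these 10 hearts. The median difference over all genes was −0.0051 on the log2 scale. Of the 21, 6 were members of the atrial list (Sln, Myl4, Mybphl, Dkk3, Fgf12 and Nppa), and 13 belonged to no fixed list. For the 16 calls outside the atrial list, adjusted p-values in limma ran from 0.0254 (Gpx3) to 0.0466 (Igfbp4). Precision is limited by how few arrays each group holds. For all 21, every high array lay above every young array. Old replicate 1 was within or below the young range for 18 of the 21, and replicates 2 and 7 for 10 each. Replicate 3 was the lowest high array for 13 of them.

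**Figure D2:**
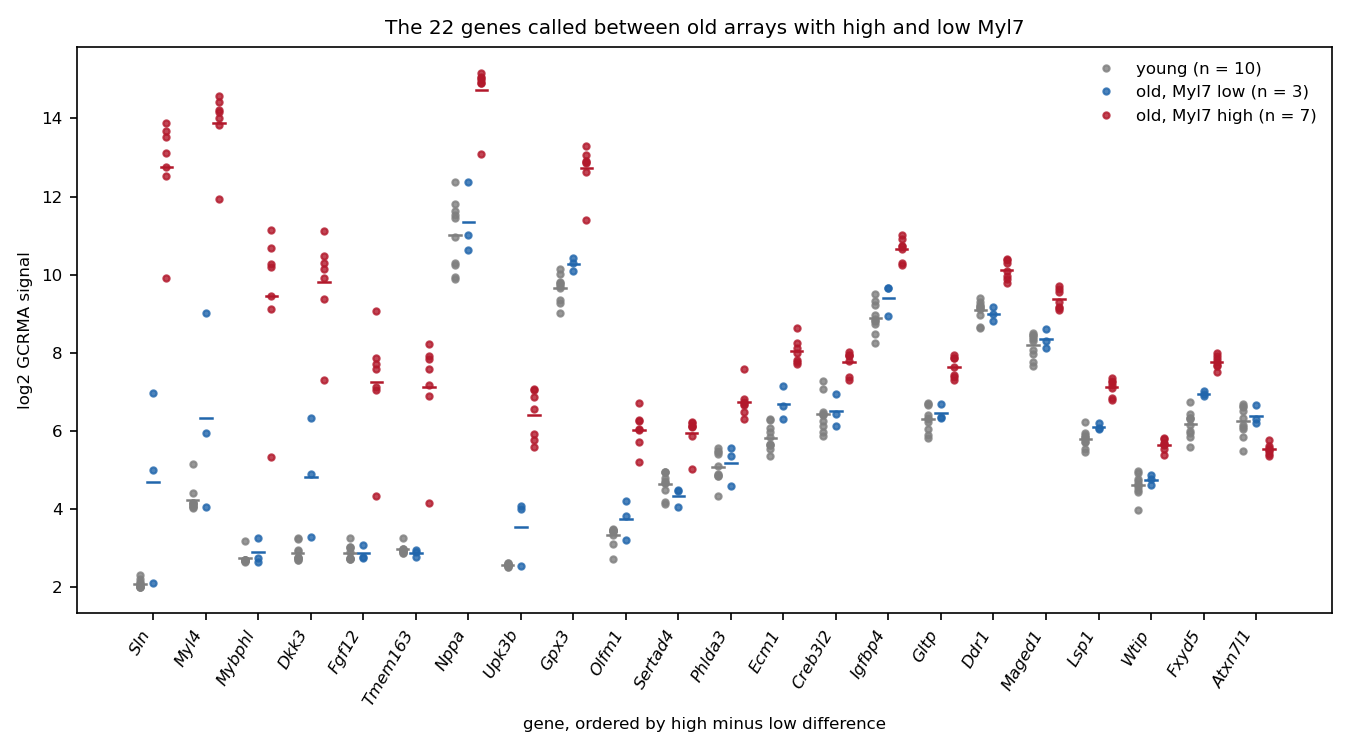
Log2 signal of the 22 genes called between old arrays with high and low Myl7 (x axis, ordered by difference) in young (grey, n = 10), Myl7-low (blue, n = 3) and Myl7-high arrays (red, n = 7), with each point an array and each short line a group mean. The 21 genes that were higher have every red point above every grey one, and Atxn7l1 at the right end has its red points lowest.

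Among the called genes that no list held, Tmem163, which encodes a zinc-transporting membrane protein, followed the atrial sarcomere genes most closely in size. It was 2.78 to 2.96 in the low arrays, 4.17 in replicate 3 and 6.90 to 8.23 in the other high arrays, a difference of 4.24 ± 0.70 (SE; limma adjusted p = 0.0439). Tmem163, Mybphl and Fgf12 were the 3 called genes above 4 in no low array, so they were tested only because the high arrays carried them through the filter. Gpx3, a secreted glutathione peroxidase, was 10.09, 10.29 and 10.43 in the low arrays, 11.39 in replicate 3 and 12.63 to 13.29 in the others, a difference of 2.45 ± 0.33 (SE; limma adjusted p = 0.0254). Gpx3 was a member of the stress list. Olfm1, a secreted olfactomedin, was 3.22 to 4.22 in low and 5.21 to 6.73 in high, a difference of 2.29 ± 0.30 (SE; limma adjusted p = 0.0254). For Tmem163, Gpx3 and Olfm1 every high array lay above every low array, as for 2.98% of all genes, and as called genes they were chosen for their difference.

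The remaining calls were smaller. Sertad4, a nuclear SERTA-domain gene, was higher by 1.62 ± 0.24 and Phlda3, a p53 target that restrains Akt, by 1.58 ± 0.27 (SE). Ecm1, a secreted matrix protein, was higher by 1.35, Creb3l2, a transcription factor anchored in the endoplasmic reticulum, by 1.26, and Igfbp4, an insulin-like growth factor binding protein, by 1.24. Gltp, a glycolipid transfer protein, Ddr1, a collagen receptor kinase, Maged1, an adaptor of the melanoma antigen family, Lsp1, an actin-binding protein of leukocytes, Wtip, a LIM-domain protein, and Fxyd5, a regulator of the sodium pump, were higher by 1.17, 1.12, 1.03, 1.01, 0.89 and 0.81. These 6 lie beyond the 15 largest and were named after their values were seen. For Lsp1 the low arrays were at 6.05 to 6.20 and the high arrays at 6.80 to 7.36. The gene that was lower, Atxn7l1, was 6.21 to 6.66 in low and 5.37 to 5.76 in high, a difference of −0.86 ± 0.14 (SE; limma adjusted p = 0.0398), and its probe sets disagreed in sign.

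The number of calls rested on single arrays. No gene was called in limma without old replicate 1, 4, 5, 6, 7, 9 or 10 (632 to 1492 genes at an unadjusted p under 0.05, and smallest adjusted p-values of 0.0509 to 0.0715), and 4 were called without replicate 2, 17 without replicate 8, and 59 higher and 7 lower without replicate 3. When the young arrays were added as a group of their own, so that the spread came from all 20 arrays, 118 genes (1.22%) were higher and 25 (0.259%) lower in the high arrays, and all 22 were among them. For some genes the young arrays varied less than the old ones, as for Cacna2d2 (SD 0.087 in young, 1.57 in high and 0.27 in low). Calls from fits over all 20 arrays can therefore understate the spread among old hearts. The sign of all 22 differences stayed the same in each of the 19 alternative fits with 1 value per gene (18 for Wtip). In some of these fits, such as the one with the young arrays added, the difference itself is unchanged, so its sign could not change. The genes were also called for large differences, so a kept sign is a weak check.

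Between the groups the arrays overlapped in technical measures. All 20 had medians between 3.07 and 3.20, no 2 held identical values and Spearman correlations ran from 0.950 to 0.995. The share of probe sets above 4 was 38.9% ± 0.69 in high and 38.5% ± 0.27 in low arrays (SD, n = 7 and 3; two-sided exact permutation test, p = 0.467). RNA degradation, read from Gapdh and β-actin controls as the signal at the 3′ end less that at the 5′ end, gave 0.37 ± 0.07 in high and 0.46 ± 0.13 in low (SD; two-sided exact permutation test, p = 0.217). With the array median, both had an adjusted p of 0.517 over 3 measures, and the smallest p this design allows is 0.00833. For the 3′ less 5′ measure, low replicates 1 and 2 had the largest values of the old arrays (0.52 and 0.55). Low replicate 7 was at 0.31 and the high arrays at 0.29 to 0.50. Deviations from the age group means were clustered and the tree was cut into 5 sets, a number that was fixed and not estimated. Each set held 4 arrays, and the labels name no batch. The low arrays lay in 2 of these sets and only 1 set, with replicate 7 (low) and replicate 8 (high), held both kinds, so in the other sets array set and Myl7 class cannot be told apart. With the set as a block over all 20 arrays, limma called 49 genes higher and 6 lower, 16 of them among the 22. The sets were formed from the same values that this fit uses, so the block is no independent measure of a batch. Within the shared set, replicate 8 exceeded replicate 7 by 7.73 for Sln, 8.07 for Myl4, 6.47 for Mybphl, 2.99 for Upk3b and 2.20 for Gpx3.

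Genes of the epicardium, the mesothelial layer on the heart's outer surface, had the largest list median after the atrial one. All 17 tested members had a mean difference above 0 (49.3% of all genes did), the median was 0.74, 5 members lay higher in every high array than in any low one (2.98% of all genes did) and 1 was called higher (0.217% of all genes). Among the 17, 5 were above 4 in no low array, Lrrn4 and Msln among them, and passed the filter only through the high arrays, so these counts describe the arrays and support nothing. That gene was Upk3b, a uroplakin of mesothelial cells. It was 2.56, 4.01 and 4.07 in the low arrays and 5.60, 6.57, 5.78, 7.08, 7.06, 5.92 and 6.87 in replicates 3, 4, 5, 6, 8, 9 and 10, a difference of 2.87 ± 0.42 (SE; limma adjusted p = 0.0258), with young arrays at 2.51 to 2.63. Lrrn4, a membrane protein of mesothelium, was 2.83 to 3.08 in low and 3.90 to 6.64 in high, a difference of 2.20 ± 0.45 (SE). Msln, mesothelin, was 2.98 to 3.20 in low and 3.62 to 5.52 in high, a difference of 1.47, and neither gene was called. Crip1, a small LIM protein, differed by 0.83 (limma adjusted p = 0.0678). In the fit over all 20 arrays, 4 of the 17 were called higher (Gpm6a, Lrrn4, Msln and Upk3b), against 1.22% of all genes. Lrrn4 and Msln passed the filter only through the high arrays, so this count too describes the arrays and supports nothing. Against young, the list median was 1.45 in the high arrays and 0.38 in the low ones. The atrial list mean was 6.63 to 8.79 in high and 5.08 to 5.73 in low arrays, and the epicardial mean 5.64 to 6.73 and 4.89 to 5.48. The groups were chosen by an atrial gene and Tbx18 is in both lists, so this separation only describes the arrays. Within the high arrays the order differed, with replicate 5 at 8.27 (atrial) and 5.70 (epicardial) and replicate 8 at 8.15 and 6.73. The part of either list in the other was not tested.

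**Figure D3:**
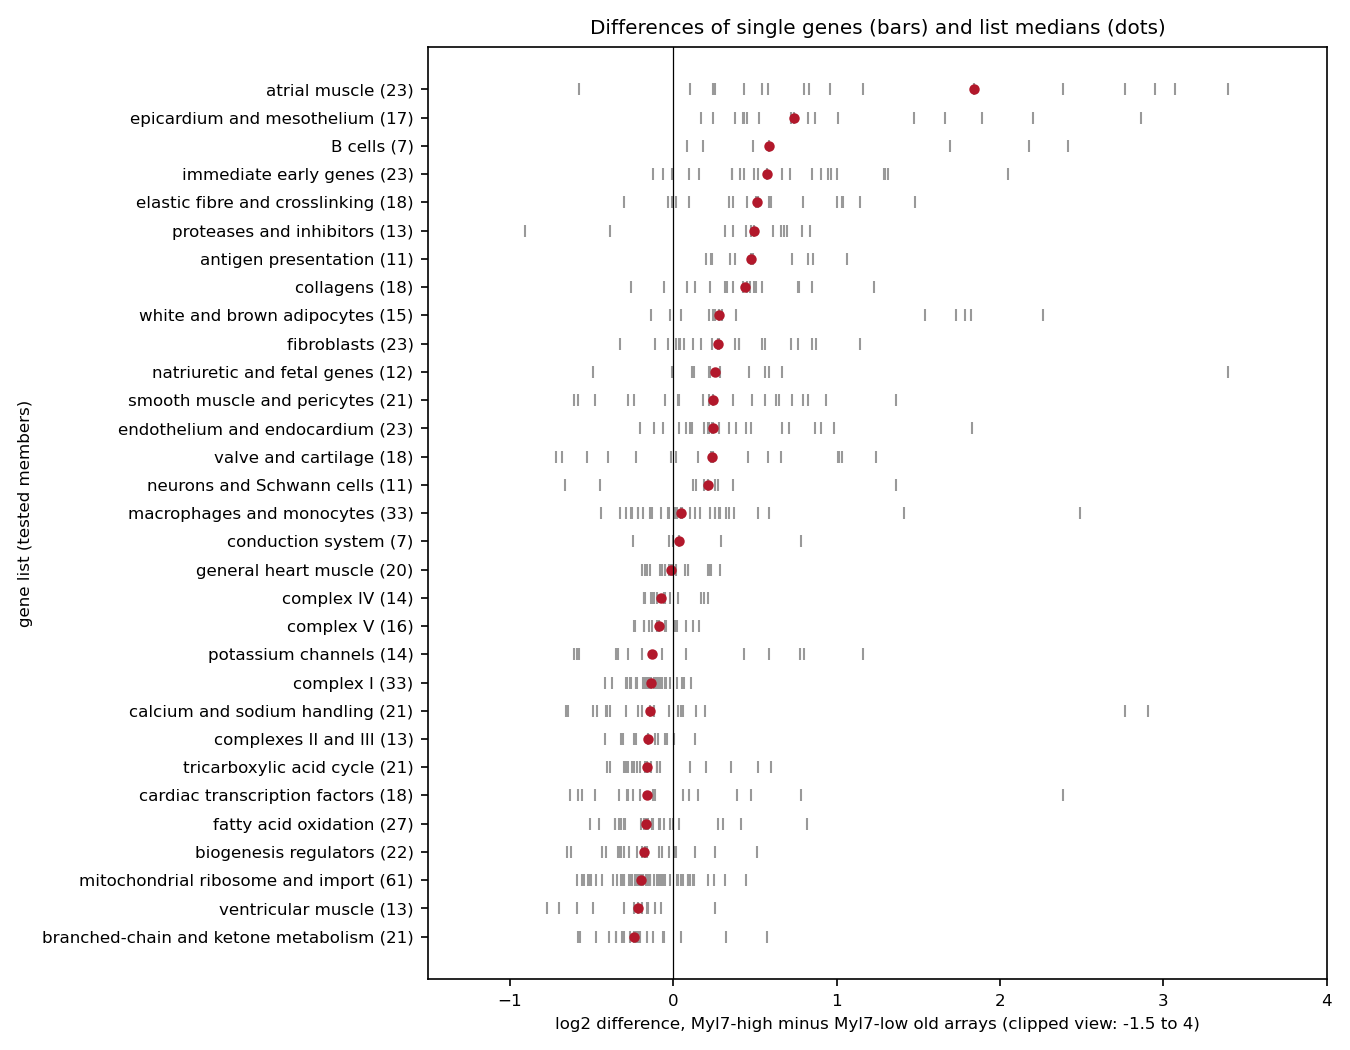
Log2 difference, Myl7-high minus Myl7-low old arrays, of each tested gene (grey bars) in 31 gene lists, with each list's median as a red dot and its number of tested members in brackets. The view is clipped at both ends, so the 6 atrial genes above 4 lie outside it. The atrial median is at 1.84 and the epicardial at 0.74, and the mitochondrial medians lie between −0.24 and −0.08.

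Endothelial, fibroblast and matrix lists leaned the same way with smaller medians, and none of the genes in these lists was called in the comparison of the 10 old arrays. Against 49.3% of all genes, the endothelial and endocardial list had 20 of 23 differences above 0 (median 0.24), the fibroblast list 20 of 23 (0.28), the collagens 16 of 18 (0.44), the elastic fibre list 15 of 18 (0.51) and proteases with their inhibitors 11 of 13 (0.49). Plvap, a diaphragm protein of fenestrated endothelium and endocardium, was 4.91 to 5.51 in low and 6.15 to 8.02 in high, a difference of 1.83 ± 0.38 (SE; limma adjusted p = 0.0989), with a young range of 3.41 to 5.41. Fbln1, fibulin 1 of the elastic matrix, was 6.68 to 7.58 in low and 7.98 to 9.81 in high, a difference of 1.48 (limma adjusted p = 0.119). Col14a1, a fibril-associated collagen, was 5.04 to 5.89 in low and 5.98 to 7.19 in high, a difference of 1.23 (limma adjusted p = 0.119). In the fit over all 20 arrays, Plvap, Fbln1 and Col14a1 were called higher, each the only such member of its list (1.22% of all genes were). A further matrix list, of proteoglycans and matricellular genes, had 4 of 26 called higher in that fit (Bgn, Ccn2, Ccn4 and Thbs3). In that list 2 members were above 4 in no low array and passed the filter only through the high arrays. With the array set as a block no member of these lists was called. The fibroblast and endothelial medians were −0.05 and −0.26 in the pair of arrays within the shared set, and 0.31 and 0.08 with the array set as a block. The valve and cartilage list had 12 of 18 differences above 0 and the same median as the endothelial one (0.24), and its 1 called member was Dkk3, which the atrial list also holds. Its medians against young were 1.29 in the high arrays and 1.21 in the low ones, both from the same young arrays.

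Immune lists were mixed. Macrophage and monocyte genes had a median of 0.05 over 33 genes, with medians against young of 0.995 in high and 0.812 in low arrays. Lgals3, the galectin 3 gene of that list, was 6.73 to 7.85 in low and 9.35 to 11.05 in the high arrays other than replicate 3, where it was 6.89 (limma adjusted p = 0.17 for the difference of 2.49). Lgals3 was called higher in the fit over all 20 arrays, with and without the array set as a block. All 11 tested antigen presentation genes had differences above 0 (49.3% of all genes did; median 0.48), and in 4 of them every high array lay above every low one (2.98% of all genes). H2-D1, a class I histocompatibility gene, differed by 1.07 ± 0.21 (SE; limma adjusted p = 0.0866). The 7 tested B cell genes also had differences above 0 (median 0.59), and 3 of them were above 4 in no low array and passed the filter only through the high arrays. Their list mean was highest in replicate 8 (8.44), followed by replicates 9, 6 and 5 (7.43, 7.28 and 6.57). It was 5.38 to 5.75 in replicates 3, 4 and 10 and 5.18 to 5.96 in the low arrays.

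The Myl7-high arrays were not alike, and several genes split them in ways that Myl7 did not. The genes in this paragraph and the next were chosen after their values were seen. Bmp10, Hamp and Cacna2d2 are members of the atrial list, and they too were picked here in that way. Bmp10, a bone morphogenetic protein that the adult mouse heart makes in right atrial muscle, was 8.60, 9.27 and 8.68 in replicates 5, 6 and 8, 4.43 in replicate 9, and 2.39 to 2.40 in replicates 3, 4 and 10. The low arrays were at 2.37 to 2.38 and the young arrays at 2.38 to 2.71. Replicates 4 and 10, with Myl7 at 14.27 and 14.55, were therefore at the floor for Bmp10. Over the 7 high arrays and the 189 genes that spanned more than 3 log2 units among them, the genes most like Bmp10 by Pearson correlation were Slc39a8, a zinc and manganese transporter (r = 0.965), and Ryr3, a ryanodine receptor (r = 0.959). Slc39a8 was 7.16, 7.65 and 7.34 in replicates 5, 6 and 8, 6.20 in replicate 9 and 4.40 to 5.20 in the other 3. These correlations rest on 7 arrays and describe them.

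Hamp, which encodes the iron hormone hepcidin, was 10.68, 11.17, 10.59 and 11.39 in replicates 5, 6, 8 and 9 and 8.04, 6.21 and 7.17 in replicates 3, 4 and 10, with 3.29 to 3.96 in the low arrays and 3.32 to 4.00 in young. Cacna2d2, a calcium channel subunit, had the same 4 arrays on top (6.64 to 8.05) and the same 3 below them (4.01 to 5.18). By the same measure the gene most like Hamp was Cxcl13, a B cell chemokine (r = 0.944), which was high in low replicate 1 too (9.85). Mlana, a melanosome protein gene, was 2.09 in replicate 3 and 7.35 to 9.45 in the other 6 high arrays, with 2.05 to 2.08 in the low arrays. The other pigment cell genes did not follow it: Pmel, Tyrp1 and Tyr stayed at 3.55 or less in every old array, and Dct overlapped between the groups. Replicate 8 stood apart in genes of fat and plasma cells. Ucp1, the uncoupling protein of brown fat, was 12.45 there, 8.04 in replicate 9, 4.20 in replicate 3 and at most 3.21 elsewhere in old arrays, and Adipoq, adiponectin, was 12.02 there and 9.15 in replicate 9. Jchain, the joining chain of secreted antibodies, was 10.68 in replicate 8 and 2.76 to 6.67 in the other high arrays.

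**Figure D4:**
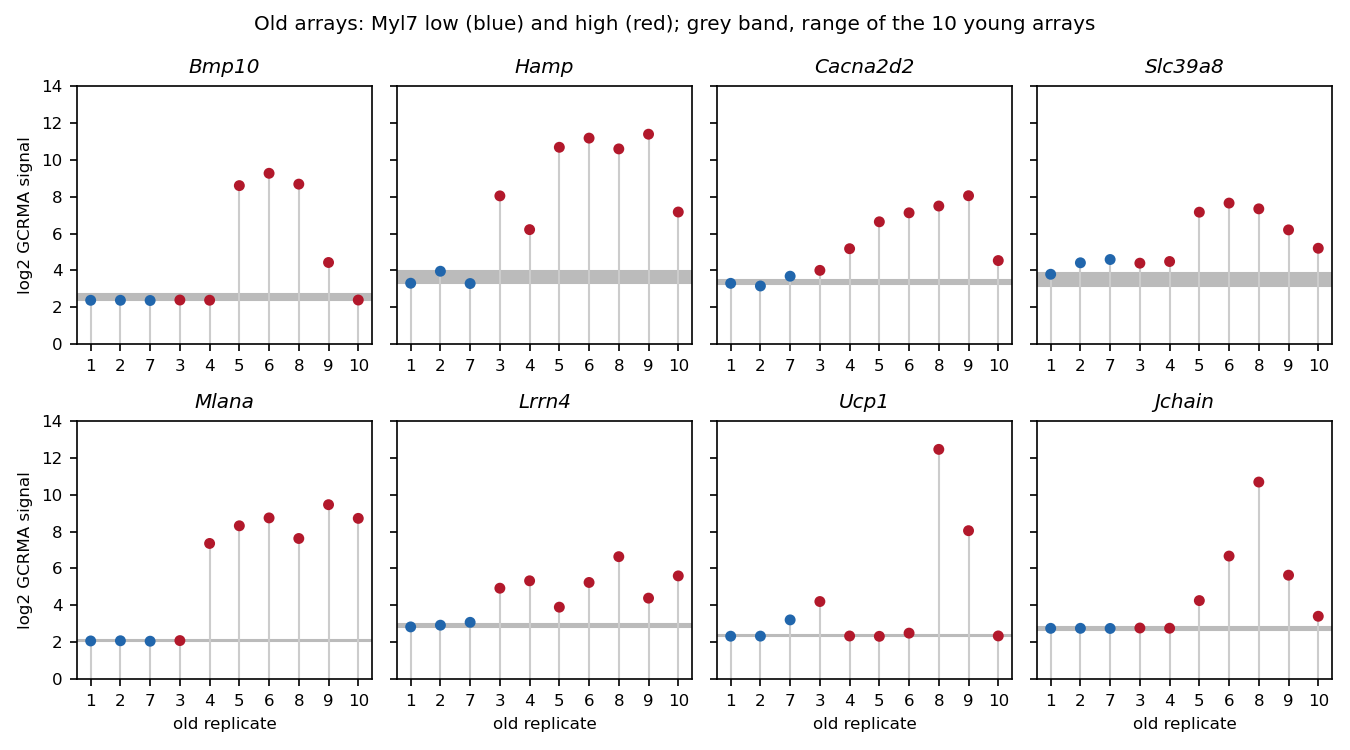
Log2 signal of 8 genes in the 10 old arrays (x axis, replicate number; blue, Myl7 low; red, Myl7 high), with the range of the 10 young arrays as a grey band. Bmp10 is up in replicates 5, 6, 8 and, less, 9, Mlana in every high array but replicate 3, and Ucp1 and Jchain peak in replicate 8 at 12.45 and 10.68.

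For genes of ventricular muscle most differences were small and below 0. Of 13 tested members, 12 had a difference below 0, with a median of −0.21, and none was called. Mpped2, a metallophosphoesterase, was 5.86 to 5.87 in low and 4.50 to 5.50 in high, a difference of −0.77 ± 0.20 (SE; limma adjusted p = 0.15). It was called lower in the fit over all 20 arrays (adjusted p = 0.0443). Pln, phospholamban, was 14.76 to 14.82 in low and 14.47 to 14.66 in high, a difference of −0.21. For these 2 every high array lay below every low array, as for 3.29% of all genes. Irx4, a ventricular homeobox gene, was 6.39 to 6.68 in low and 4.86 to 6.87 in high, with overlap. The list mean was 10.20 ± 0.09 in low, 9.91 ± 0.21 in high and 10.09 ± 0.09 in young arrays (SD, n = 3, 7 and 10), and replicate 3 (10.26) was within the low range. Myl2, Myl3 and Pln were near the top of the scale, where differences are compressed.

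General heart muscle genes had differences close to 0. The median over 20 genes was −0.01 (−0.16 with the array set as a block), and Tnnt2, cardiac troponin T, differed by −0.05 ± 0.12 and Myh6, the main adult myosin heavy chain, by −0.05 ± 0.10 (SE). In the conduction system list, 7 of 15 genes on the array passed the filter and their median was 0.03 (−0.17 with the set as a block). Its members Cntn2 and Scn10a were at 2.72 or less in every old array, and Shox2, a sinus node factor, reached 4.26 in replicate 9 and 3.82 in replicate 8 against 2.69 to 2.72 in the low arrays. Cacna1h, a T-type calcium channel gene of the calcium list, was 3.26 to 4.74 in low and 4.85 to 7.54 in high, a difference of 2.90 ± 0.53 (SE; limma adjusted p = 0.0633). Cacna1h was called higher in the fit over all 20 arrays (limma adjusted p = 0.00071) and with the array set as a block (limma adjusted p = 0.0453). Both fits take part of their spread from the young arrays, where its SD was 0.38, against 0.92 in high and 0.80 in low arrays. Abcc9, the sulphonylurea receptor of muscle and vessel potassium channels, was 11.83 to 12.15 in low and 11.12 to 11.79 in high, without overlap (limma adjusted p = 0.151).

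Most genes for mitochondrial proteins had small differences below 0, and none was called in the comparison of the 10 old arrays. The respiratory chain carries electrons to oxygen and makes ATP, and fatty acid oxidation feeds it in adult heart. Complex I had 28 of 33 differences below 0 (median −0.13), complexes II and III 11 of 13 (−0.15), complex IV 10 of 14 (−0.08) and complex V 11 of 16 (−0.09). Fatty acid oxidation had 22 of 27 (−0.17), the tricarboxylic acid cycle 16 of 21 (−0.16), mitochondrial ribosome and import genes 47 of 61 (−0.19), branched-chain and ketone metabolism 18 of 21 (−0.24) and biogenesis regulators 17 of 22 (−0.18). Over all genes 49.3% of differences were above 0. With the array set as a block the medians were −0.23 for complex I, −0.17 for complex V and −0.24 for fatty acid oxidation. The number of members for which every high array lay below every low array was 6 of 27 for fatty acid oxidation and 6 of 21 for the cycle, 3 of 33 for complex I and 0 of 14 for complex IV, against 3.29% of all genes.

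Among the genes of these pathways named here, differences reached −0.65 on the log2 scale. Hadh, a dehydrogenase of fatty acid oxidation, was 14.55 ± 0.08 in low and 14.09 ± 0.18 in high (SD, n = 3 and 7; limma adjusted p = 0.192), and 14.55 ± 0.12 in young. Eci1, an enoyl-CoA isomerase, was 11.75 in low, 11.24 in high and 12.03 in young (limma adjusted p = 0.194 for high minus low). Hibch, a hydrolase of valine breakdown, was 9.97, 9.40 and 10.17 (adjusted p = 0.127), and Auh, a hydratase of leucine breakdown, was 9.63, 9.05 and 9.87 (adjusted p = 0.194). With the spread from all 20 arrays, Eci1, Hibch and Auh were called lower (limma adjusted p = 0.0407, 0.0351 and 0.048), and with the array set as a block they were not (0.163, 0.216 and 0.0587). Ppargc1a, the coactivator that drives mitochondrial biogenesis, was 8.98 to 9.33 in low and 7.93 to 8.74 in high, a difference of −0.65 ± 0.18 (SE; limma adjusted p = 0.169), with probe sets that disagreed in sign. Tfam, the mitochondrial transcription factor, overlapped between the groups (−0.16), as did Cpt2, a carnitine palmitoyltransferase (−0.02).

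Set against the young hearts, which are the same arrays in both differences, the medians of the high arrays were farther below 0 than those of the low arrays in each of the 9 mitochondrial lists. For fatty acid oxidation they were −0.40 in high and −0.14 in low, for branched-chain and ketone metabolism −0.45 and −0.22, for ribosome and import −0.29 and −0.11, for complexes II and III −0.28 and −0.09, and for complex I −0.24 and −0.11. Complex IV was at −0.08 and −0.003. For complex I the list mean was 12.73 in replicate 8 and at most 13.25 in the other high arrays, against 13.15 to 13.21 in low, so replicate 10 (13.25) was above every low array. Replicates 8 and 9 were the lowest old arrays for complexes II and III (12.76 and 12.81). For complex IV replicate 8 was the lowest old array (11.98) and replicate 9 the highest (12.41). Replicates 8 and 9 were also the arrays with the most fat cell signal (adipocyte list means of 11.64 and 9.80 against 8.33 to 9.41 in the other high arrays and 8.49 to 8.70 in low). The part of that signal in the mitochondrial values was not tested.

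**Figure D5:**
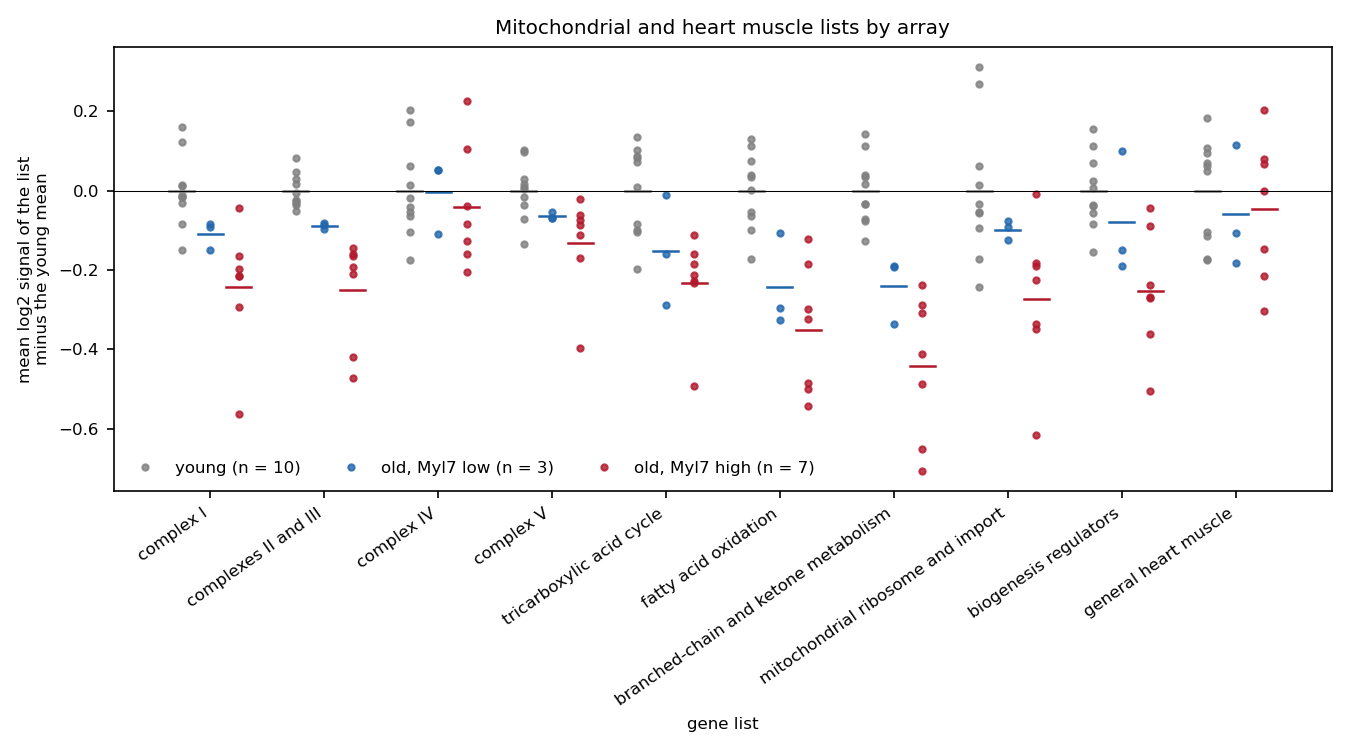
Mean log2 signal of 9 mitochondrial lists and of general heart muscle in each array, minus the mean of the 10 young arrays (grey, young; blue, Myl7-low, n = 3; red, Myl7-high, n = 7; short lines, group means). The red means lie below the blue ones in all 9 mitochondrial lists, with overlapping points in most, and the general heart muscle means are close together.

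For immediate early genes, which are transcribed within minutes of a stimulus, most differences were above 0. Of 23 tested, 20 had differences above 0 (median 0.57), 3 lay higher in every high array than in any low one and none was called. Over all genes 49.3% of differences were above 0 and 2.98% had every high array above every low one. Jund, a subunit of the AP-1 factor, was 6.17 to 6.58 in low and 6.64 to 7.74 in high, a difference of 0.91 ± 0.21 (SE; limma adjusted p = 0.122). Btg2, an antiproliferative gene, was 7.17 to 7.50 in low and 7.88 to 9.63 in high, a difference of 1.29 ± 0.30 (SE; limma adjusted p = 0.122). Fos was 4.75, 6.13 and 3.85 in the low arrays and 5.79 to 8.40 in the high ones, but the young arrays alone spanned 2.59 to 9.76. Against young, the list median was −0.10 in the high arrays and −0.55 in the low ones.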

How the data were processed

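Each of the 20 Affymetrix MOE430 2.0 arrays measured ventricular RNA of 1 mouse. The authors deposited 1 log2 value per probe set and array. GCRMA, named in the submitters' processing notes, made them by correcting background, normalizing between arrays and summarising probes. Its version is not given in the sources used here, and the scale was inferred from the range of 0.98 to 16.0. Undetected transcripts sit near a floor of about 2 to 4, and the brightest are compressed.

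Of 45101 probe sets, 34945 have 1 gene in the platform annotation, 932 several and 9160 none given here. Probe sets above 4 in at least 3 of the 10 old arrays were kept, and the highest by mean stood for its gene. Groups were formed by Myl7 (probe set log2 above 10) among the arrays titled old. The 7 high and 3 low arrays were compared with limma 3.58.1 (lmFit, eBayes, R 4.3.3), with Benjamini-Hochberg adjustment over 9660 genes. Myl7 chose the groups and was left out of the adjustment, and the lists are described by counts and medians with no test of a list. Technical measures had exact permutation tests over arrays. The fit was tested on simulated data. The members and the 47 gene lists (1169 entries, 1073 matched) were chosen with earlier results of these data known. Named genes are the 15 largest differences in each direction among called genes, the 4 smallest p-values in each described list, all members of the 3 heart muscle and conduction lists, and 11 fixed references. Nothing states that the mice came from separate litters or cages, so p-values measure the spread between these animals. Alternatives are given at the end.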

Additional observations from a re-analysis of the deposited data

Results flagged for a closer look

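Among the 7 Myl7-high arrays, 30 of the reported genes had an array whose gap to its nearest neighbour was large for the range of the group (Dixon's criterion, which chance meets for about 1 in 20 groups). Old replicate 3 was the low array for 11 of them, 5 of which were in the atrial list (Fgf12, Mybphl, Myl4, Nppa and Sln). The 11 were Cacna1h at 4.85, Fgf12 at 4.34, Gpx3 at 11.39, Lgals3 at 6.89, Mybphl at 5.32, Myl4 at 11.94, Nppa at 13.09, Npr3, the natriuretic peptide clearance receptor, at 7.19, Sertad4 at 5.04, Sln at 9.91 and Tmem163 at 4.17. Replicate 3 was the high array for Tbx2 at 4.40. Its values for the atrial genes were those of the array nearest the threshold.

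Old replicate 8 was the low array for Bves at 7.14, Cryab, a small heat shock protein, at 13.99, Egfl7, an endothelial gene, at 7.73, Ldb3, a Z-disc protein, at 11.68 and Nkx2-5, a cardiac homeobox factor, at 6.78. It was the high array for the lipid synthesis genes Fasn at 11.27 and Scd1 at 12.90, for Isl1 at 2.92, which is near the floor, and for Phlda3 at 7.57.

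Old replicate 9 was the low array for Ppargc1a at 7.93, Ryr2, the cardiac ryanodine receptor, at 12.98 and Uqcrfs1, a complex III subunit, at 13.02, and the high array for Vsnl1 at 3.97. Replicate 6 was the high array for Kcnj2 at 4.18, Pam, a peptide-processing enzyme abundant in atria, at 8.39 and Timp2 at 10.33. Replicate 5 was the high array for Myh6 at 16, and replicate 10 the low array for Myh7, the slow myosin heavy chain, at 8.61.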

How the results depend on the processing

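The sign of all 22 called genes held in each of the 19 alternative fits with 1 value per gene (18 for Wtip), while the number of calls did not. Adding the young arrays or changing the eBayes options leaves each difference as it was, so the sign could not change there. Against 21 higher and 1 lower as deposited, limma called 118 and 25 with the spread from all 20 arrays, 49 and 6 with the array set as a block, 32 and 1 with Myl7 as a continuous covariate, 13 and 0 with the mean of a gene's probe sets, and 26 and 4 with a filter at 6. It called 0 higher and 1 lower with no filter (1664 genes at an unadjusted p under 0.05) and 0 and 0 when each of 16129 passing probe sets was tested, an alternative added after seeing the data (2008 at an unadjusted p under 0.05, smallest adjusted p = 0.0529). No gene was called lower (0) after quantile normalization or with trend and robust eBayes. Atxn7l1, the lower call as deposited, was also not called with no filter or the mean of probe sets (limma adjusted p = 0.057 and 0.667). With the array set as a block and with Myl7 as a covariate it was not called either (limma adjusted p = 0.14 and 0.163). The 1 lower gene with no filter, and with the covariate, was therefore a different gene. Leaving out each old replicate in turn gave 0 to 59 higher and 0 to 7 lower genes. With 3 low arrays, leaving out 1 leaves 2. No paired analysis was possible because the old and young arrays share no replicate numbers.

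In all 20 alternatives the medians of the atrial, epicardial, B cell, antigen presentation, collagen, elastic fibre, protease, smooth muscle, valve, adipocyte and immediate early lists were above 0. Those of the 9 mitochondrial lists and of the ventricular, calcium, transcription factor and general muscle lists were below 0. The conduction, endothelial, fibroblast, macrophage, natriuretic, neuronal and potassium channel medians changed sign in at least 1. Some named genes reversed, among them Nkx2-5 and Bckdk, which were 0.79 and 0.58 as deposited. With the array set as a block the differences were −0.15 for Bckdk, 0.086 for Gabpa, 0.0011 for Gja1, 0.067 for Hey2, −0.10 for Kcnk3, −0.57 for Lbh, −0.30 for Ldb3, −0.53 for Nkx2-5, −0.065 for Pnpla2, −0.31 for Popdc2 and −0.14 for Smoc2. With the mean of probe sets they were 0.12 for Kcnip2, −0.14 for Lbh and 0.52 for Myh6. With Myl7 as a covariate they were 0.006 for Cpt2 and −0.0747 for Tbx3, and after quantile normalization −0.0268 for Tbx3. Leaving out 1 array gave −0.10 to 0.17 for Bves, −0.11 to 0.11 for Cpt2, −0.10 to 0.0316 for Gjc1, −0.24 to 0.0704 for Irx5, −0.23 to 0.18 for Smoc2, −0.0829 to 0.26 for Tbx3 and −0.11 to 0.0609 for Uqcrc1. The cause of these changes was not tested. None of these genes was called in the comparison of the 10 old arrays. Genes near the floor of the scale have compressed differences, so small values there carry little weight.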

Other observations

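Several genes outside the lists had differences between the groups without reaching the threshold. They were picked for their size. Slc7a7, an amino acid transporter, was 1.86 to 2.08 in the Myl7-low arrays, 2.09 in old replicate 3 and 4.48 to 5.83 in the other 6 Myl7-high arrays. Cracd, an actin regulator, was 3.28 to 3.37 in low, 3.75 in replicate 3 and 6.04 to 7.77 in the others. Both were above 4 in no low array and passed the filter only through the high arrays. Myl1, a myosin light chain of fast skeletal muscle, was 8.90 to 9.30 in low and 9.53 to 11.54 in high, without overlap (limma adjusted p = 0.105).

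In the other direction, Gpr22, an orphan receptor gene of heart and brain, was 9.15 to 9.74 in low and 7.84 to 9.04 in high (limma adjusted p = 0.122). Fbp2, the muscle fructose bisphosphatase, was 8.70 to 8.88 in low and 7.43 to 8.21 in high (limma adjusted p = 0.0931), and 8.16 to 9.19 in young. Rb1cc1, an autophagy initiation factor gene, was 8.83 to 9.05 in low and 7.89 to 8.46 in high (limma adjusted p = 0.0678). In all 3 every Myl7-high array lay below every Myl7-low array, as for 3.29% of all genes. These genes were picked after their values were seen, so that separation supports nothing.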
